A study of Mus musculus with 121 samples.

Results

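The genes followed here are Tbr1, Neurod2, Neurod6, Emx1, Cux2, Rorb, Fezf2, Tle4 and Lamp5, known as markers of cortical excitatory neurons and of the layers in which they lie. They were taken by name, as the entries of the count table whose symbol equals one of these 9 names. All 9 were found, each once, among 24412 genes. Excitatory neurons of the neocortex come from progenitors of the pallium, the roof of the embryonic forebrain, and settle in layers that differ in their inputs and targets. Transcription factors that set this lineage and its layers stay on in the adult, whereas most neurons of the striatum and the ventral midbrain come from other progenitors. Transcripts of such factors are therefore used both to describe cortex and to look for cortical tissue in pieces dissected from neighbouring regions.

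Among the 9, Emx1 is a homeobox factor of the pallial lineage, Neurod2 and Neurod6 are basic helix-loop-helix factors of pyramidal neurons, and Tbr1 is a T-box factor of glutamatergic neurons, best known in layer 6. Cux2 is a homeobox factor of the upper layers, Rorb is a nuclear receptor of layer 4, and Lamp5 is a membrane protein of upper-layer neurons and of a class of interneurons. Fezf2 is a zinc-finger factor needed for the layer 5 neurons that project below the cortex, and Tle4 is a Groucho-type corepressor of the layer 6 neurons that project to the thalamus.

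The 121 bulk RNA sequencing libraries were made from prefrontal cortex (PFC), striatum (STR) and substantia nigra (SN) of 43 male mice of a mixed 129Ola/ICR/C57bl6 background. Mice carried a conditional allele of Gdnf, called cKU, which raises expression of the gene from its own locus after Cre has acted: genotypes were wt/wt (WT), wt/cKU (HET) and cKU/cKU (HOM). The 21 Nestin-Cre mice, of the strain GDNF cKU x Nestin-Cre, were untreated and 2 months old; this Cre is active in progenitors throughout the central nervous system from mid-gestation, so it does not single out a region or a neuron type. The 22 AAV-Cre mice, of the strain GDNF cKU +AAV-Cre, had bilateral injections of AAV-Cre into the striatum at 3 to 5 months of age and were 5 to 7 months old at dissection. By these labels the WT groups of both models carried or received Cre too.

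The Nestin-Cre groups held 8 WT, 6 HET and 4 HOM libraries in PFC, and 6 WT, 7 HET and 6 HOM libraries in each of STR and SN. The AAV-Cre groups held 7 WT, 7 HET and 8 HOM libraries in PFC, 7 of each genotype in STR, and 7 WT, 7 HET and 8 HOM libraries in SN. Counts assigned to genes ranged from 9869584 in A_PFC_HET_3610 to 26750905 in N_PFC_HET_4606, with a median of 17885830. Group medians ran from 13456979 in AAV-Cre PFC HOM to 20090039 in AAV-Cre SN HET. Libraries are named as in their labels, by model (N or A), region, genotype and mouse number. The labels of 1 mouse conflict, since its libraries are N_PFC_WT_4575, N_STR_HOM_4575 and N_SN_HOM_4575, so Nestin-Cre results that turn on it are also given without it. Values below are in cpm, read counts relative to the library's total, after scaling over all 121 libraries. A gene is called when its adjusted p in a fit over all genes tested is under 0.1. The test is the edgeR quasi-likelihood test unless another is named.

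Gdnf itself (Entrez 14573, chr15:7810048-7837580, build mm10) was scarce outside STR. In Nestin-Cre STR its mean was 5.97 ± 1.26 cpm (SD) in 6 WT, 6.24 ± 1.83 in 7 HET and 7.19 ± 1.46 in 6 HOM libraries. In AAV-Cre STR it was 6.59 ± 0.773 in WT, 7.60 ± 1.10 in HET and 8.67 ± 0.864 in HOM, with 7 libraries each. Mean Gdnf in WT, HET and HOM was 0.495, 0.430 and 0.254 cpm in Nestin-Cre PFC, 0.408, 0.622 and 0.645 in Nestin-Cre SN, 0.837, 1.06 and 0.883 in AAV-Cre PFC, and 0.322, 0.463 and 0.477 in AAV-Cre SN. No genotype difference of Gdnf passed the test over all genes: the fold change was 0.40 (SE 0.0938) on the log2 scale for AAV-Cre STR HOM against WT at an adjusted p of 0.504, and 0.28 (SE 0.195) for Nestin-Cre STR HOM at 0.784. In Nestin-Cre PFC and in SN of each model it fell below the expression filter of at least 1 cpm in at least 3 libraries. The paper reports raised striatal Gdnf mRNA by qPCR in both models. After Cre the allele gives an mRNA with a short 3' untranslated region, while the counts here cover annotated exons, 4867 bases in all. Whether the counts therefore miss part of a rise was not tested.

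Defining markers of the other regions matched the dissection labels. The 13 striatal markers summed to 14048 ± 1243 cpm in Nestin-Cre STR WT against 987 ± 228 in PFC WT, and the 12 midbrain dopamine markers to 4151 ± 660.5 in Nestin-Cre SN WT against 106 ± 14.2 in PFC WT. AAV-Cre sums were 11069 ± 1147 in STR WT and 1664 ± 576 in PFC WT for the striatal markers, and 4146 ± 993 in SN WT and 88.6 ± 13.1 in PFC WT for the dopamine markers. PFC thus held some striatal transcripts in each model and more in the AAV-Cre model, while Foxa1 and Foxa2, factors of dopamine neuron progenitors, had 0 counts in all PFC libraries. 2 SN libraries stood apart by their striatal markers, with 2146 cpm in N_SN_HET_4566 and 1208 in A_SN_WT_3587, where the next highest SN library, A_SN_WT_3649, held 526.

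The 9 genes lie on chromosomes 2, 5, 6, 11, 14 and 19 (mm10). Tbr1 (Entrez 21375) is at chr2:61804453-61814113, Lamp5 (76161) at chr2:136057927-136069917, Cux2 (13048) at chr5:121860216-122049851 and Neurod6 (11922) at chr6:55677819-55681263. Emx1 (13796) is at chr6:85187931-85204463, Neurod2 (18013) at chr11:98325417-98329645, Fezf2 (54713) at chr14:12341892-12345865, Tle4 (21888) at chr19:14448072-14598183 and Rorb (225998) at chr19:18930609-19111196.

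Compared per length, as cpm divided by the exon length in kilobases (RPKM), Lamp5 was the most abundant of the 9 in WT PFC of each model and Rorb the least. In Nestin-Cre WT PFC (n = 8) the RPKM order was Lamp5 at 133 ± 19.9, Neurod6 at 48.0 ± 9.01, Tbr1 at 37.6 ± 3.18, Neurod2 at 17.9 ± 1.95, Tle4 at 14.6 ± 1.43, Cux2 at 14.5 ± 3.00, Fezf2 at 13.7 ± 2.21, Emx1 at 9.61 ± 2.27 and Rorb at 4.25 ± 0.411. Libraries of neighbours in this order did not overlap between Lamp5 and Neurod6, between Tbr1 and Neurod2, and between Emx1 and Rorb, and overlapped for the other neighbours. In AAV-Cre WT PFC (n = 7) the RPKM order was Lamp5 at 106 ± 16.7, Tbr1 at 31.3 ± 4.93, Neurod6 at 29.3 ± 5.84, Cux2 at 18.3 ± 2.14, Neurod2 at 17.7 ± 2.91, Tle4 at 12.9 ± 2.204, Fezf2 at 10.98 ± 2.05, Emx1 at 10.04 ± 3.27 and Rorb at 3.71 ± 0.487. Here the breaks without overlap lay after Lamp5, after Neurod6 and after Emx1. In STR the RPKM order was another one: Lamp5 at 95.7 ± 15.0 and Tle4 at 32.0 ± 5.21 led in Nestin-Cre WT, ahead of Neurod6 at 5.05 ± 5.66. AAV-Cre STR WT had the same 2 in front, Lamp5 at 61.1 ± 9.48 RPKM and Tle4 at 23.9 ± 1.48, with Cux2 next at 3.64 ± 0.642. In SN the most abundant by RPKM were Lamp5 at 10.1 ± 4.87 and Tle4 at 9.98 ± 1.42 in Nestin-Cre WT, and Tle4 at 11.5 ± 0.896 and Cux2 at 8.75 ± 1.13 in AAV-Cre WT.

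WT libraries of the 3 regions show how well each gene sets cortex apart. Tbr1 and Emx1 had the lowest SN levels relative to PFC in each model, while in AAV-Cre STR Neurod6 and Neurod2 were lower by that measure. In Nestin-Cre WT, Tbr1 ran from 129 in N_PFC_WT_4329 to 167 in N_PFC_WT_4609, with a median of 152 cpm in PFC, from 0.891 to 31.1 with a median of 7.94 in STR, and from 0.481 to 5.75 with a median of 0.754 in SN. In AAV-Cre WT it ran from 97.3 to 151 with a median of 130.1 in PFC, from 1.38 to 6.46 with a median of 2.72 in STR, and from 0.456 to 1.90 with a median of 0.700 in SN. The lowest PFC library of each model lay above every STR and SN library of that model. Tbr1 in STR averaged 8.87% of the WT PFC mean in Nestin-Cre mice and 2.67% in the AAV-Cre model, and in SN 1.07% and 0.682%. Fold changes were -3.48 (SE 0.506) and -5.19 (SE 0.237) for STR against PFC on the log2 scale, Nestin-Cre first, and -6.63 (SE 0.647) and -7.16 (SE 0.281) for SN, with adjusted p of 3.94e-06, 2.31e-14, 6.11e-09 and 8.34e-16.

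Emx1 was low in cpm everywhere, at 11.3 ± 2.66 in Nestin-Cre and 11.8 ± 3.83 in AAV-Cre WT PFC. It averaged 0.784 and 0.510 cpm in STR and 0.414 and 0.317 in SN. Read counts of Emx1 ran from 82 to 369 in PFC, from 1 to 59 in STR and from 0 to 32 in SN libraries, so its values outside PFC rest on few reads. Its 0 counts in N_SN_HOM_4580 allow up to 0.162 cpm, and the 0 counts of Fezf2 in A_SN_WT_3585 allow up to 0.166 cpm, by a limit of 3 counts that covers counting error only.

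Neurod2 and Neurod6 were lower outside cortex than in it. Neurod2 in SN had a median of 1.24 cpm in Nestin-Cre WT and 3.59 in AAV-Cre WT. Neurod6 in Nestin-Cre WT ran from 77.1 to 138 with a median of 103 cpm in PFC, from 0.318 to 29.0 with a median of 5.73 in STR and from 1.37 to 18.6 with a median of 2.93 in SN. AAV-Cre WT values ran from 47.9 to 85.0 with a median of 58.6 in PFC, from 0.590 to 2.09 with a median of 0.741 in STR and from 2.72 to 10.2 with a median of 5.17 in SN. PFC stood apart from both regions in each model, and in AAV-Cre mice SN held more Neurod6 than STR. Fold changes of Neurod6 were -3.24 (SE 0.629) and -5.93 (SE 0.270) in STR and -3.96 (SE 0.666) and -3.43 (SE 0.216) in SN. For Neurod2 they were -3.48 (SE 0.6252) and -5.31 (SE 0.441) in STR and -3.42 (SE 0.626) and -3.07 (SE 0.364) in SN, Nestin-Cre first. Fezf2 had -3.45 (SE 0.474) and -3.31 (SE 0.457) in STR and -4.05 (SE 0.501) and -4.17 (SE 0.485) in SN.

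The data go against the label for Tle4 and in part for Rorb, Lamp5 and Cux2. Tle4 was higher in STR than in cortex: in Nestin-Cre WT it ran from 61.2 to 81.4 with a median of 71.1 cpm in PFC and from 131 to 188 with a median of 155 in STR, and in AAV-Cre WT from 46.9 to 81.2 with a median of 63.7 in PFC and from 106 to 127 with a median of 116 in STR. Every WT STR library exceeded every WT PFC library of its model. The difference was 1.13 on the log2 scale with SE 0.0961 and adjusted p 1.45e-09 in Nestin-Cre, and 0.89 with SE 0.0795 and adjusted p 2.06e-09 in AAV-Cre mice. In SN Tle4 kept 68.5% of its PFC level in Nestin-Cre and 89.5% in AAV-Cre WT. The latter groups overlapped, and -0.16 there passed at an adjusted p of 0.0774.

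Rorb outside cortex stayed at 51.8% and 54.4% in STR and 52.9% and 55.7% in SN, Nestin-Cre first. Lamp5 stayed at 71.9% in Nestin-Cre and 57.7% in AAV-Cre STR but only at 7.61% and 6.31% in SN. Its Nestin-Cre STR values, 143 to 211 cpm, overlapped those of PFC, 207 to 327, and the fold change of -0.48 (SE 0.189) passed at an adjusted p of 0.0319. Cux2 was at 14.5% and 19.8% in STR and at 29.3% and 47.7% in SN, so its level was higher in SN than in STR in each model. Tle4, Rorb, Lamp5 and Cux2 are thus not specific to cortex among these regions, whereas Tbr1, Neurod2, Neurod6, Emx1 and Fezf2 were at 11.8% of their PFC level or less in the WT groups of STR and SN.

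**Figure D1:**
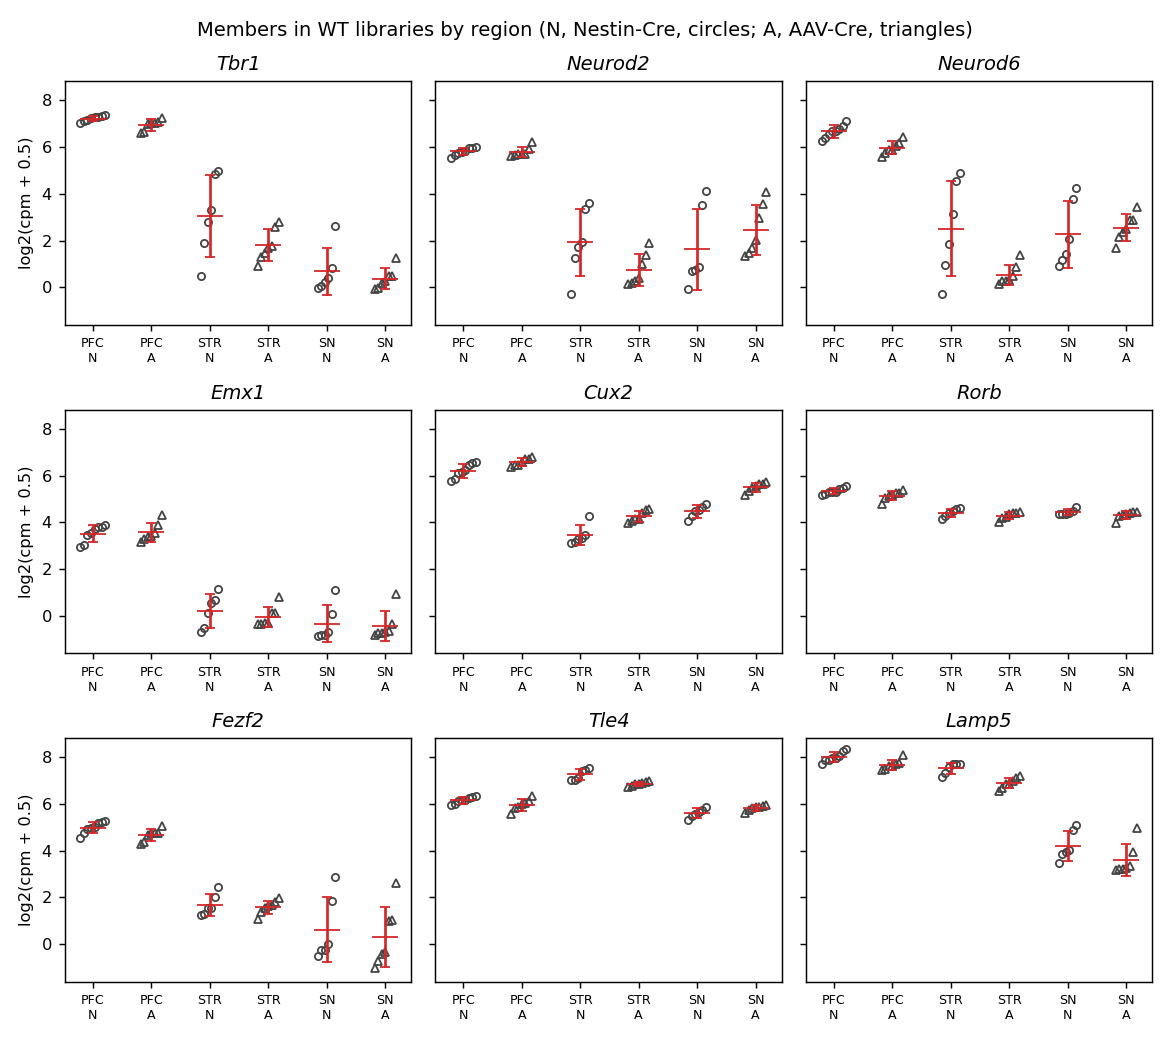
Level of the 9 genes in each WT library, as log2(cpm + 0.5), in PFC, STR and SN, with circles for Nestin-Cre and triangles for AAV-Cre mice and the red mark for the mean with its SD. Tbr1 is highest in PFC and lowest in SN, while Tle4 is highest in STR.

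Counted over the 9 genes, all were called in each of these WT comparisons with edgeR, 8 lower and 1 higher in STR and 9 lower in SN in each model. The background was large: 68.1% of 14926 genes tested were called in Nestin-Cre STR, 78.8% in Nestin-Cre SN, 65.6% of 15043 in AAV-Cre STR and 74.1% in AAV-Cre SN. The genes were chosen as cortical markers, so these directions are largely what the choice fixes. Median fold changes of the 9 were -3.24 and -3.31 in STR and -3.74 and -3.43 in SN. Libraries of PFC and the other region did not overlap for 8 of the 9 in Nestin-Cre STR, 9 in Nestin-Cre SN, 9 in AAV-Cre STR and 8 in AAV-Cre SN. The share of all genes without overlap was not counted, so these counts have no background and do not set the 9 genes apart. With the mouse as replicate block, which pairs the regions of a mouse, Tbr1 gave -3.59 in Nestin-Cre STR and -5.22 in AAV-Cre STR, Tle4 gave 1.04 and 0.89, and Lamp5 gave -0.43 and -0.81.

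Other genes of the cortical excitatory program, from lists written out for these tissues, split in the same regions. Shares of all genes called there ran from 65.6% in AAV-Cre STR to 78.8% in Nestin-Cre SN. Of 15 excitatory neuron markers, 11 were called lower and 3 higher in Nestin-Cre STR, 11 and 2 in AAV-Cre STR, and all 15 were lower in SN of each model. Slc30a3, the synaptic vesicle zinc transporter, was lower in Nestin-Cre STR (log2 fold change -5.06, SE 0.328, adjusted p 1.67e-11), while Arpp21 (2.04) and Hpca (2.02), which striatal neurons also express, were higher. Hpca was the most abundant excitatory marker in STR by RPKM, at 951 in Nestin-Cre mice, and Camk2a in PFC, at 725. Of 15 upper-layer markers, 8 were lower and 4 higher in Nestin-Cre STR and 10 lower and 1 higher in Nestin-Cre SN; of 22 deep-layer markers, 12 were lower and 8 higher in STR and 12 and 6 in SN. In AAV-Cre mice the upper-layer list had 10 lower and 5 higher in STR and 8 and 4 in SN, and the deep-layer list 11 and 9 in STR and 11 and 8 in SN. Like Tle4, the deep-layer genes Foxp2 (2.36) and Bcl11b (2.27) were higher in Nestin-Cre STR than in PFC, whereas Sox5 (-2.10) was lower. Of the pallial transcription factors tested, 11 in the Nestin-Cre fit and 12 in the AAV-Cre fit, 8 and 9 were lower in STR and 8 and 10 in SN, led by Nr2f1 (-2.07) and Bhlhe22 (-4.03) in Nestin-Cre STR.

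Markers of other cells and tissues were called between regions as well, beside 68.1% of all genes in Nestin-Cre STR and 78.8% in Nestin-Cre SN. In AAV-Cre STR and SN the shares of all genes were 65.6% and 74.1%. No list was tested against these shares. All 13 striatal markers were higher in STR of each model, and 11 of 12 dopamine markers in Nestin-Cre SN and 12 of 12 in AAV-Cre SN were higher there, led by Ddc (6.45) and Slc6a3 (9.69). All 12 oligodendrocyte markers were higher in STR and SN of each model. In Nestin-Cre STR and SN, in that order, calls higher and lower were 0 and 6, then 7 and 2, of 9 astrocyte markers, and 7 and 0, then 5 and 0, of 8 microglia markers. The 12 interneuron markers had 5 higher and 4 lower in Nestin-Cre STR, and the 9 immediate-early genes 1 and 3. Tissues next to those dissected gave mixed counts in Nestin-Cre STR: 4 higher and 5 lower of 11 hippocampal, 0 and 10 of 10 olfactory bulb, and 1 and 2 of 9 thalamic and tectal markers. In these bulk libraries fewer cells of a type and less RNA per cell cannot be told apart.

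In PFC of Nestin-Cre mice, where Cre had been active since mid-gestation, Gdnf was at 0.495, 0.430 and 0.254 cpm in WT, HET and HOM, below the filter. The 4 pallial genes stayed close to WT. Tbr1 ran from 129.8 in N_PFC_HET_4566 to 149 in N_PFC_HET_4606, with a median of 138 in HET, and its HOM values were 144 in N_PFC_HOM_4393, 142 in N_PFC_HOM_4568, 145 in N_PFC_HOM_4569 and 129 in N_PFC_HOM_4580. All 6 HET and all 4 HOM libraries lay below the WT mean of 149 ± 12.6, though within the WT range or at its lower edge. Fold changes of Tbr1 were -0.097 (SE 0.0523) in HET and -0.076 (SE 0.0596) in HOM, at adjusted p of 0.575 and 0.764, and the HOM value was -0.042 without N_PFC_HOM_4580.

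Neurod2 in HOM was 60.6 in N_PFC_HOM_4393, 73.7 in N_PFC_HOM_4568, 65.3 in N_PFC_HOM_4569 and 50.1 in N_PFC_HOM_4580 cpm, with WT from 46.2 to 64.2 with a median of 56.3 and HET from 46.2 to 57.9 with a median of 53.6. N_PFC_HOM_4568 and N_PFC_HOM_4569 lay above every WT library and N_PFC_HOM_4580 lay in the lower part of the WT range. Its fold changes were -0.079 (SE 0.0803) in HET and 0.18 (SE 0.0908) in HOM, the latter at an adjusted p of 0.538. Leaving out single HOM libraries moved it from 0.082 without N_PFC_HOM_4568 to 0.27 without N_PFC_HOM_4580. Neurod6 averaged 103 ± 19.4, 101 ± 7.62 and 95.9 ± 7.54 cpm in WT, HET and HOM, and Emx1 11.3 ± 2.66, 9.74 ± 3.40 and 11.3 ± 2.83. Neither group order was larger than the spread between libraries. Emx1 in HOM turned on single mice: its fold change of 0.019 became -0.18 without N_PFC_HOM_4568 and -0.042 without N_PFC_WT_4575.

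Among the layer genes, Tle4, which was higher in STR than in PFC, had the most negative HOM fold change. Its HOM values were 66.8 in N_PFC_HOM_4393, 65.0 in N_PFC_HOM_4568, 57.8 in N_PFC_HOM_4569 and 56.8 in N_PFC_HOM_4580 cpm. WT ran from 61.2 in N_PFC_WT_4329 to 81.4 in N_PFC_WT_4529, with a median of 71.1, and HET from 61.3 to 71.4 with a median of 67.9. All 4 HOM libraries were below the WT mean of 71.2, and N_PFC_HOM_4569 and N_PFC_HOM_4580 were below every WT library. The fold change was -0.19 (SE 0.0719) with an unadjusted p of 0.0155, and the adjusted p of 0.350 missed the threshold, as it did under all alternatives tried, from 0.285 to 1.00. Lamp5 averaged 260.3 ± 38.9, 238 ± 21.7 and 238 ± 23.8 cpm, with all 6 HET and all 4 HOM libraries below the WT mean. Cux2 averaged 75.0 ± 15.6, 78.8 ± 12.6 and 77.1 ± 7.97, Rorb 40.2 ± 3.88, 40.4 ± 2.29 and 40.4 ± 5.47, and Fezf2 31.6 ± 5.10, 28.9 ± 4.87 and 33.4 ± 4.84. For these 4 genes the HOM fold changes lay between -0.11 and 0.10 and the groups overlapped.

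None of the 9 was called in Nestin-Cre PFC by edgeR, where 0% of 14386 genes were called in HET and 0.25% (36 genes) in HOM. The edgeR likelihood ratio test and DESeq2 called 0 of the 9 as well. Over all genes the former called 2.88% and 2.15%, DESeq2 116 and 227 genes, and the fit over all regions 0 genes in each. At an unadjusted p under 0.05 there were 0 members in HET and 1, Tle4, in HOM, beside 1398 and 1446 of all genes. Median fold changes of the 9 were -0.079 in HET and 0.019 in HOM, with -0.0011 and -0.0033 over all genes. HET and HOM were compared with the same WT libraries.

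The other cortical lists gave no calls here. In HOM the medians were -0.018 over 15 excitatory, 0.0030 over 15 upper-layer, -0.075 over 22 deep-layer and -0.020 over 11 pallial genes, with the smallest p in Slc30a3 (log2 fold change 0.18, SE 0.108, adjusted p 0.663), Wfs1 (log2 fold change 0.31, SE 0.109, adjusted p 0.310), Foxp2 (log2 fold change -0.42, SE 0.148, adjusted p 0.310) and Bhlhe22 (log2 fold change 0.20, SE 0.0892, adjusted p 0.460). In HET they were 0.0038, 0.057, -0.042 and 0.074, and Hs3st4, a heparan sulfate sulfotransferase of deep-layer neurons, had the smallest adjusted p of these lists, 0.282 at -0.28. Non-cortical lists had larger medians in places. Striatal markers were lower in 13 of 13 genes, with medians of -0.70 in HET and -0.60 in HOM, none called by the edgeR quasi-likelihood test. Their sums were 987 ± 228 cpm in WT, 672 ± 102 in HET and 682 ± 172 in HOM. Oligodendrocyte markers had medians of -0.44 and -0.44, 0 of 12 positive in each, and the gap junction gene Gjb1 fell in HOM (log2 fold change -0.71, SE 0.0982, adjusted p 0.00677). All 9 immediate-early genes were positive in both, with medians of 0.86 and 0.88 and no call. Their part in the values of the 9 genes was not tested. Remaining HOM medians were -0.057 for hippocampal, -0.36 for olfactory bulb, -0.42 for dopamine, 0.0085 for thalamic and tectal, 0.061 for interneuron, -0.017 for astrocyte and -0.011 for microglia markers, with no calls. N_PFC_HOM_4580 had the highest olfactory bulb sum of its group, 659 cpm beside a group median of 181. Within Nestin-Cre PFC this sum ran against Lamp5 (r = -0.826), Tbr1 (-0.793), Fezf2 (-0.624), Rorb (-0.605), Neurod2 (-0.572) and Tle4 (-0.530). Values were smaller for Emx1 (-0.290), Neurod6 (-0.0562) and Cux2 (0.102). That relation was not tested further.

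In PFC of AAV-Cre mice, away from the injected striatum, the values leaned the other way for several genes. Gdnf was at 0.837 ± 0.336, 1.06 ± 0.559 and 0.883 ± 0.455 cpm in WT, HET and HOM, with a HOM fold change of 0.12 at an adjusted p of 0.912. Tbr1 ran from 97.3 in A_PFC_WT_3588 to 151 in A_PFC_WT_3578, with a median of 130.1 in WT, from 109.6 in A_PFC_HET_3610 to 176 in A_PFC_HET_3688, with a median of 135 in HET, and from 114 in A_PFC_HOM_3611 to 177 in A_PFC_HOM_3567, with a median of 158 in HOM. The 3 groups overlapped, with 6 of 7 HET and 7 of 8 HOM libraries above the WT mean. Tbr1 had a fold change of 0.20 (SE 0.107, adjusted p 0.452) in HET and 0.27 (SE 0.104) in HOM. The HOM value had an unadjusted p of 0.0165 and an adjusted p of 0.267. With the likelihood ratio test it would be called, at 0.0375, and over its alternatives the adjusted p ran from 0.0375 to 0.374.

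Neurod6 ran from 47.9 to 85.0 with a median of 58.6 cpm in WT, from 50.6 to 97.8 with a median of 70.3 in HET and from 46.9 to 91.7 with a median of 78.2 in HOM. The highest libraries were HET and HOM ones, yet the lowest of all was a HOM one. Its fold changes were 0.20 (SE 0.1503) in HET and 0.21 (SE 0.146) in HOM. Neurod2 averaged 55.5 ± 9.11, 56.8 ± 10.8 and 62.1 ± 13.2 cpm and Emx1 11.8 ± 3.83, 12.0 ± 3.09 and 13.5 ± 3.32. A_PFC_WT_3587 was the highest WT library for each of these, at 74.7 and 19.3 cpm. Tle4 averaged 62.9 ± 10.8, 67.0 ± 3.36 and 69.3 ± 4.85, with all 7 HET libraries above the WT mean and a HOM fold change of 0.13 (SE 0.0747). Fezf2 averaged 25.3 ± 4.71, 28.5 ± 4.38 and 28.3 ± 4.91, Rorb 35.1 ± 4.61, 36.6 ± 5.15 and 39.6 ± 6.61, Lamp5 207 ± 32.6, 201 ± 31.4 and 215 ± 22.0, and Cux2 95.1 ± 11.1, 91.4 ± 14.1 and 90.6 ± 18.9. Cux2 was the single gene of the 9 with a negative HOM fold change, -0.083.

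Again none of the 9 was called by edgeR, where 0% of 14628 genes were called in HET and 0.0137% (2 genes) in HOM. The likelihood ratio test called 0 in HET and 1, Tbr1, in HOM, with 1.70% and 2.93% of all genes, and the fit over all regions called 0 of the 9 and 193 and 460 of all genes. DESeq2 called 0 of the 9 in each, with 6 and 184 of all genes, and 0 and 1 of the 9 had an unadjusted p under 0.05, beside 1806 and 2074 of all genes. Medians of the 9 were 0.056 in HET and 0.15 in HOM, against -0.0022 and -0.0033 over all genes, with 7 and 8 of the 9 positive. Both comparisons share their WT libraries.

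Deep-layer and excitatory lists were mostly positive in HOM without a call, with 18 of 22 and 12 of 15 genes positive and medians of 0.11 and 0.13. Hs3st4 (log2 fold change 0.22, SE 0.0695, adjusted p 0.220) and the synaptic vesicle protein gene Sv2b (log2 fold change 0.30, SE 0.0947, adjusted p 0.222) had the smallest p of these. Upper-layer markers had a median of -0.046 with 4 of 15 positive, and pallial factors 0.014. In HET the medians were 0.069 for excitatory, 0.14 for deep-layer and -0.030 for upper-layer markers. Beside these, HOM medians were -0.22 for striatal (0 of 13 positive), -0.19 for astrocyte (0 of 9), -0.21 for microglia (0 of 8), 0.0010 for oligodendrocyte and -0.34 for immediate-early genes, none called. Within AAV-Cre PFC, with group means removed, Tbr1 ran against microglia (r = -0.713), astrocyte (-0.582) and striatal (-0.459) markers. Within Nestin-Cre PFC the same values were 0.551, 0.556 and 0.230. Whether these lists bear on the values of the 9 genes was not tested further.

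**Figure D2:**
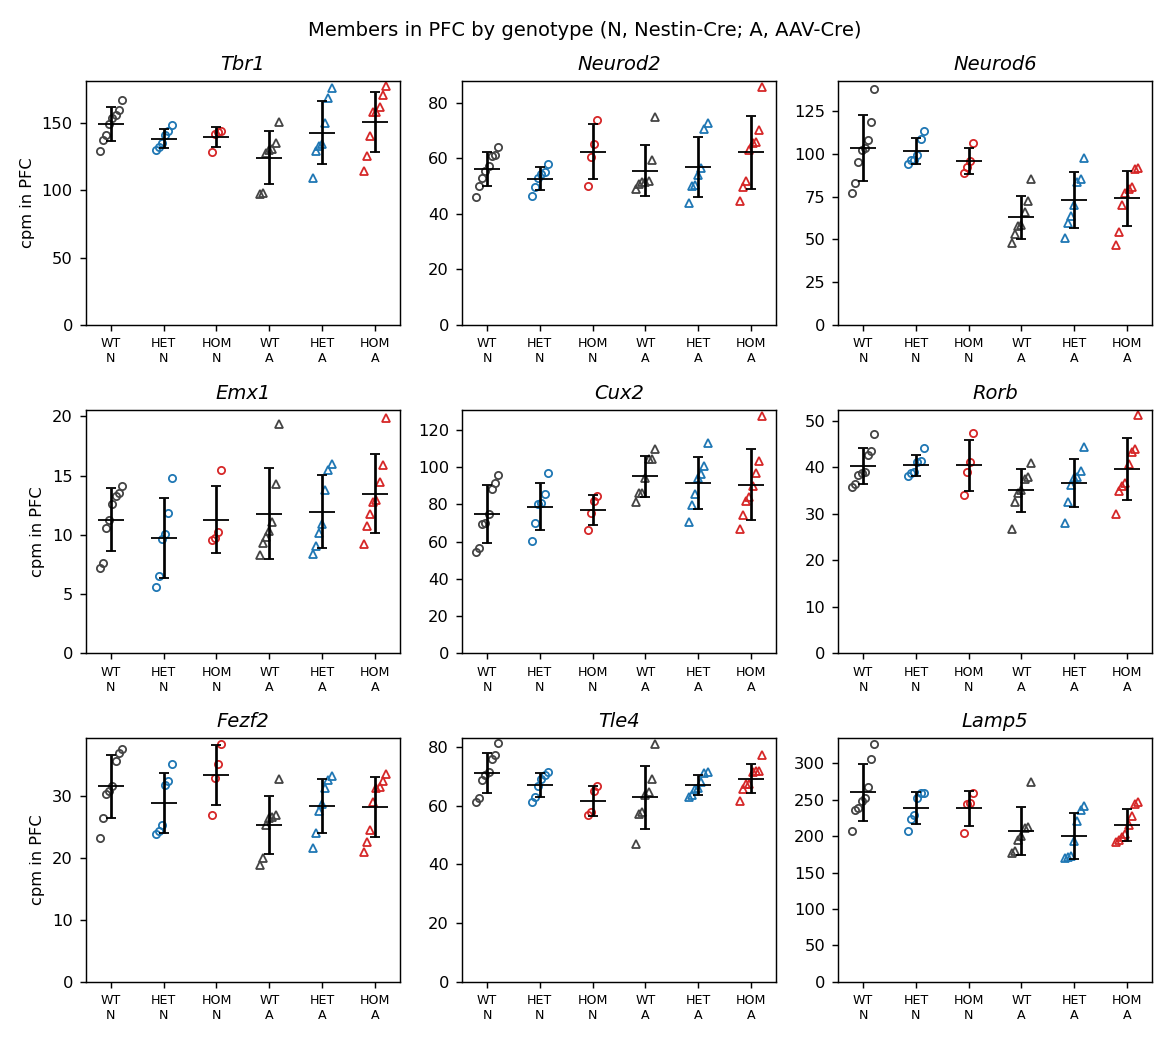
Level of the 9 genes in each PFC library in cpm, on axes that start at 0, by genotype and model, with the mean and SD of each group. Groups overlap for every gene, and Neurod6 is higher in Nestin-Cre than in AAV-Cre WT mice.

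The test of whether the HOM difference in PFC itself differs between models called none of the 9 with edgeR, while 3.54% of 14757 genes were called. 2 of the 9 had an unadjusted p under 0.05, beside 2450 of all genes. The likelihood ratio test called 1 of the 9, beside 4.20% of all genes. Tle4, negative in Nestin-Cre and positive in AAV-Cre HOM, had a difference of 0.33 on the log2 scale (SE 0.108, unadjusted p 0.00465, adjusted p 0.112), and its adjusted p ran from 0.119 to 0.144 over the alternatives. Tbr1 had 0.35 (SE 0.137, adjusted p 0.175), called at 0.0796 by the likelihood ratio test, with a range from 0.0796 to 0.209 over the alternatives. Neurod6 had 0.31 (SE 0.203), Emx1 0.18 (SE 0.297), Lamp5 0.16 (SE 0.140), Rorb 0.14 (SE 0.143), Fezf2 0.057 (SE 0.183), Neurod2 -0.020 (SE 0.171) and Cux2 -0.14 (SE 0.183). The median was 0.16 with 7 positive. Of the cortical lists, Hs3st4 was called (log2 fold change 0.40, SE 0.122, adjusted p 0.0773). Outside them 5 of 12 oligodendrocyte markers were called, Gjb1 first (log2 fold change 0.82, SE 0.175, adjusted p 0.0118), and 1 of 8 microglia markers, Aif1 (log2 fold change -0.94, SE 0.224, adjusted p 0.0211). Models differ in age, Cre delivery and injection, which cannot be told apart.

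WT PFC of the 2 models differed for 6 of the 9 genes, in a comparison where 48.1% of all genes were called. Neurod6 was lower in all 7 AAV-Cre WT libraries than the Nestin-Cre mean (log2 fold change -0.68, SE 0.131, adjusted p 9.56e-05), and Cux2 higher in all 7 (log2 fold change 0.37, SE 0.118, adjusted p 0.0110). Lamp5 (-0.30, adjusted p 0.00726), Tbr1 (-0.24, adjusted p 0.0288), Fezf2 (-0.30, adjusted p 0.0410) and Tle4 (-0.15, adjusted p 0.0816) were lower in AAV-Cre mice. Groups of each gene overlapped, and Tle4 missed the threshold without N_PFC_WT_4575, at 0.116, with a range from 0.0916 to 0.123 over its alternatives. Rorb (-0.17), Emx1 (0.079) and Neurod2 (0.014) were not called. Genes of the lists were called too, beside that share of 48.1%, against which no list was tested. Of 22 deep-layer markers, 13 were lower and 2 higher, with Ctgf, a subplate marker, at -0.74. Of 15 excitatory markers, 8 were lower and 3 higher, with Sv2b at -0.58 and Camk2a at 0.45. Of the upper-layer list, 6 were higher and 2 lower, Cux1 at 0.24 among the former, as for its relative Cux2. The pallial list had 4 lower and 1 higher. All 13 striatal and all 8 microglia markers were higher in AAV-Cre PFC, and 7 of 12 oligodendrocyte markers lower.

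Within PFC, the 9 genes did not vary from library to library as a block. After group means were removed, Pearson r over the 36 pairs ran from -0.374 to 0.790 with a median of 0.221 over 40 libraries, which share tissue, dissection and the design. Neurod2 and Emx1 formed the closest pair, with r = 0.790 and Spearman's rho = 0.822, 0.706 within Nestin-Cre, 0.883 within AAV-Cre, and 0.804 without the 2 libraries farthest from the median. Tbr1 and Fezf2, both of deep-layer neurons, came next with r = 0.748, rho = 0.706, 0.602 and 0.847 within models and 0.719 without 2 libraries. Cux2 went with Emx1 (r = 0.662, rho = 0.637) and Neurod2 (r = 0.622, rho = 0.564), and Tle4 ran against Emx1 (r = -0.374, rho = -0.305). 8 pairs had an r over 0.5 and 7 pairs a negative one.

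The genes most like each of the 9 over the same 40 libraries, out of 11787 genes with a mean of at least 5 cpm, differed from one to the next. Tbr1 was closest to Spock1 (r = 0.881) and Pgm2l1 (0.852), Fezf2 to Nptx1 (0.831) and Dkk3 (0.828), and Neurod6 to Enc1 (0.839) and Rspo2 (0.800). Neurod2 was closest to Cdk5r2 (0.796) and Cox8a (0.795), Emx1 to Zdhhc8 (0.847) and Tmem151a (0.844), and Cux2 to Rusc2 (0.866) and Arhgef17 (0.863). Lamp5 had Ppme1 (0.871) and Tspan5 (0.835), Rorb had Endod1 (0.801) and Gtdc1 (0.753). Tle4 had the weakest likeness, with Dhdds (0.7097, and 0.608 without the 2 farthest libraries) and Smim10l2a (0.688, and 0.589). No gene was the closest of more than 1 of the 9.

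As cortical tissue in STR, the 4 pallial genes varied between libraries of one group by far more than between genotypes. Gdnf in Nestin-Cre STR was 5.97, 6.24 and 7.19 cpm in WT, HET and HOM. Tbr1 ran from 0.891 in N_STR_WT_4545 to 31.1 in N_STR_WT_4326, with a median of 7.94 in WT, from 1.44 in N_STR_HET_4566 to 13.0 in N_STR_HET_4606, with a median of 2.85 in HET, and from 0.868 in N_STR_HOM_4580 to 56.8 in N_STR_HOM_4569, with a median of 6.89 in HOM. N_STR_WT_4326, N_STR_WT_4609 and N_STR_HOM_4569 were high, and the remaining HOM libraries lay within the WT range or just below it. Neurod6 followed the same libraries, from 0.318 in N_STR_WT_4545 to 29.0 in N_STR_WT_4326, with a median of 5.73 in WT, from 0.204 in N_STR_HET_4578 to 7.23 in N_STR_HET_4577, with a median of 0.920 in HET, and from 0.613 in N_STR_HOM_4580 to 40.6 in N_STR_HOM_4569, with a median of 3.73 in HOM. All 7 HET libraries lay below the WT mean for Tbr1, Neurod2, Neurod6 and Emx1, yet each overlapped the lower WT libraries. Fold changes in HET were -1.37 (SE 0.788) for Tbr1, -1.46 (SE 0.772) for Neurod2, -1.89 (SE 0.943) for Neurod6 and -1.08 (SE 0.653) for Emx1, with adjusted p of 0.363, 0.329, 0.302 and 0.380.

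In HOM the same 4 fold changes were 0.22 (SE 0.792), 0.13 (SE 0.767), -0.11 (SE 0.931) and 0.14 (SE 0.627). Several turned on N_STR_HOM_4569: without it Tbr1 had -0.92, Neurod2 -1.07, Neurod6 -1.50 and Fezf2 -0.014, where Fezf2 had 0.54 with it. The sign turned for Tbr1, Neurod2 and Fezf2, Neurod6 was negative with and without that library, and Emx1 fell below the filter. Without the mouse with conflicting labels Neurod6 was 0.085. Over all alternatives Tbr1 reached 0.39, Neurod2 0.30 and Emx1 0.31. Tle4 averaged 156 ± 25.4, 147 ± 22.8 and 149 ± 17.3 cpm, Lamp5 187 ± 29.3, 169 ± 17.9 and 177 ± 31.4, Rorb 20.8 ± 2.59, 20.5 ± 1.77 and 20.1 ± 2.95, and Cux2 10.8 ± 4.10, 14.9 ± 4.25 and 13.6 ± 5.04. Among them the Cux2 fold changes were largest, 0.46 (SE 0.241) in HET and 0.35 (SE 0.249) in HOM.

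In Nestin-Cre STR edgeR called 0 of the 9 in HET and HOM, with 0% and 0% of 14494 genes called. The likelihood ratio test called 4 in HET (Tbr1, Neurod2, Neurod6 and Emx1) and 0 in HOM, with 8.57% and 1.91% of all genes. DESeq2 called 0 of the 9 in each, with 535 and 1 of all genes, and the fit over all regions called 0 of the 9 with 1082 and 0. 0 of the 9 had an unadjusted p under 0.05, beside 2513 genes in HET and 670 in HOM. Adjusted p over alternatives ran from 3.97e-15 to 0.350 for Neurod6 and from 2.06e-10 to 0.405 for Tbr1 in HET. Medians of the 9 were -0.14 in HET and 0.13 in HOM, beside 0.0100 and 0.0084 over all genes, from shared WT libraries. Excitatory markers had a HET median of -0.48 (1 of 15 positive), with Nrgn at -0.93 (adjusted p 0.1498), and striatal markers -0.38 (0 of 13 positive), with summed levels of 14048 ± 1243 cpm in WT, 10451 ± 2221 in HET and 12301 ± 1912 in HOM. The HET median was 0.18 for upper-layer, -0.037 for deep-layer and -0.034 for pallial genes, with no calls.

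Read as a share of the WT PFC mean, the cortical level of a library was taken as the median over the 9 genes, and it averaged 11.9 ± 7.57% in WT, 8.82 ± 1.86% in HET and 14.3 ± 11.7% in HOM of Nestin-Cre STR. The highest libraries were N_STR_WT_4609 at 22.3% and N_STR_HOM_4569 at 38.0%. Restricted to Tbr1, Neurod2, Neurod6 and Emx1, the mean was 8.88 ± 8.60%, 3.10 ± 2.82% and 9.66 ± 13.8%. Group medians so restricted were 5.94%, 1.86% and 4.64%, with N_STR_HOM_4569 at 37.5%. That restriction was made after the values were seen. In AAV-Cre STR the median over 9 averaged 10.03 ± 2.29%, 10.6 ± 1.21% and 13.1 ± 4.30%, and over the 4 pallial genes 2.56 ± 1.62%, 2.70 ± 0.669% and 4.71 ± 4.15%. For the 4 pallial genes the group medians were 1.68%, 2.52% and 2.69%, with A_STR_HOM_3687 at 13.3%. The median over 9 was the value of Fezf2 in 13 of 19 Nestin-Cre and 19 of 21 AAV-Cre STR libraries, so there it describes little more than that gene.

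In AAV-Cre STR, the injected region, Gdnf was at 6.59, 7.60 and 8.67 cpm. Pallial genes were low in WT and HET, and a few HOM libraries were higher. Neurod6 ran from 0.590 in A_STR_WT_3578 to 2.09 in A_STR_WT_3588, with a median of 0.741 in WT, from 0.551 in A_STR_HET_3586 to 2.37 in A_STR_HET_3652, with a median of 1.28 in HET and from 0.398 in A_STR_HOM_3607 to 21.2 in A_STR_HOM_3687, with a median of 1.40 in HOM. A_STR_HOM_3687 lay far above all others, A_STR_HOM_3749 at 3.99 and A_STR_HOM_3567 at 3.97 also lay above every WT and HET library, and the lowest value of all 3 groups was a HOM one. The HOM fold change of Neurod6 was 2.21 (SE 0.650), with 5 of 7 HOM libraries above the WT mean, an unadjusted p of 0.00261 and an adjusted p of 0.926. Without A_STR_HOM_3687 it was 0.92 (SE 0.451, adjusted p 0.993).

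Neurod2 showed the same mouse on top, from 0.512 in A_STR_HOM_3607 to 11.4 in A_STR_HOM_3687, with a median of 1.72 in HOM, beside 0.593 to 3.21 with a median of 0.834 in WT and 1.00 to 2.04 with a median of 1.26 in HET. Apart from A_STR_HOM_3687 the groups overlapped. Its HOM fold change of 1.13 (SE 0.519), adjusted p 1.00, became 0.19 without that library. Tbr1 ran from 1.38 to 6.46 with a median of 2.72 in WT, from 2.09 to 5.81 with a median of 3.79 in HET and from 2.27 to 8.18 with a median of 3.88 in HOM, where A_STR_HOM_3567 and not A_STR_HOM_3687 was highest, with a fold change of 0.55 (SE 0.323). Emx1 averaged 0.510, 0.481 and 0.551 cpm and fell below the filter. Fezf2 averaged 2.54 ± 0.578, 2.69 ± 0.305 and 3.14 ± 0.761, Tle4 117 ± 7.24, 119.5 ± 15.9 and 124 ± 12.3, and Lamp5 119.5 ± 18.5, 124 ± 15.1 and 126 ± 12.4. Cux2 was at 18.9 ± 3.33, 17.9 ± 1.01 and 17.9 ± 3.85 cpm and Rorb at 19.1 ± 2.06, 20.1 ± 3.13 and 20.2 ± 3.25, differences smaller than their spread.

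Of the 8 genes tested in AAV-Cre STR, edgeR called 0 in HET and HOM, with 0% and 0% of 14655 genes called. At an unadjusted p under 0.05 there were 0 and 2 of the 8, beside 251 and 671 of all genes, the likelihood ratio test called 0 and 2 (Neurod2 and Neurod6) with 0.382% and 1.19% of all genes, and DESeq2 called 0 in each with 0 and 5 of all genes. The single fit over all regions called 1 in HOM, Neurod6 at 0.0954, beside 4 of all genes, and its adjusted p ran from 1.67e-16 to 0.995 over the alternatives. Medians were 0.058 in HET and 0.19 in HOM, beside 0.00075 and -0.00011 over all genes, against shared WT libraries. Excitatory markers had a HOM median of 0.13 (12 of 14 tested positive), with Lmo4 at 0.21 (adjusted p 0.926), and the pallial factor Bhlhe22 had 0.94. Microglia markers had -0.20 (0 of 8 positive) and immediate-early genes -0.36 (0 of 9), none called.

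Whether the HOM difference itself differed between STR and PFC was tested within each model, and no gene of the 9 was called by edgeR, with 0% of 14890 genes called in Nestin-Cre and 0% of 15075 in the AAV-Cre model. In AAV-Cre mice Neurod6 had 2.05 (SE 0.632) and Neurod2 1.02 (SE 0.490), the 2 with an unadjusted p under 0.05, where 631 of all genes had one, and the 2 that the likelihood ratio test called, beside 0.325% of all genes. Without A_STR_HOM_3687 they were 0.68 and 0.012, and adjusted p ran from 7.74e-29 to 0.998 and from 1.10e-05 to 1.00 over the alternatives. In Nestin-Cre mice 0 of the 9 had an unadjusted p under 0.05, beside 449 of all genes, and the likelihood ratio test called 0 with 0.739% of all genes; Fezf2 had 0.45 (SE 0.369) and Tbr1 0.30 (SE 0.797), which became -0.12 and -0.88 without N_STR_HOM_4569. With mouse as replicate block the values were 1.38 for Neurod6 and 0.70 for Neurod2 in AAV-Cre, and 0.53 for Fezf2 and 0.13 for Tbr1 in Nestin-Cre mice. Medians of the 9 were 0.13 and 0.028. The DESeq2 test was not run for these differences.

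Across the 40 STR libraries the pallial genes went up and down together. With group means removed, Neurod2 and Neurod6 had r = 0.955 (rho = 0.895, 0.977 within Nestin-Cre, 0.898 within AAV-Cre, 0.937 without the 2 farthest libraries), Tbr1 and Neurod6 0.910 (rho = 0.907, 0.965, 0.736, 0.892), and Tbr1 and Neurod2 0.907 (rho = 0.912, 0.960, 0.780, 0.884). Emx1 followed Tbr1 at 0.759 (rho = 0.599), with 0.863 within Nestin-Cre and 0.351 within AAV-Cre mice. Of the layer genes, Fezf2 also went with Tbr1 at 0.582 (rho = 0.485) and Neurod2 at 0.650 (rho = 0.538), whereas Tle4 and Tbr1 had 0.0432 (rho = 0.157), and Cux2 ran against Lamp5 at -0.621 (rho = -0.512). Slc17a7, the vesicular glutamate transporter of cortical neurons and a gene chosen after its values were seen, went with Tbr1 at 0.957, Neurod2 at 0.951 and Neurod6 at 0.942, less closely with Fezf2 at 0.552, and with Tle4 at 0.0348, Rorb at 0.0118 and Cux2 at 0.0347. Its level in Nestin-Cre STR WT ran from 7.06 to 233 with a median of 66.6 cpm, in HOM up to 389 in N_STR_HOM_4569, and in AAV-Cre STR HOM up to 121 in A_STR_HOM_3687, the same libraries that were high in Neurod6. The summed dopamine markers also went with Tbr1, at r = 0.674 (0.813 within Nestin-Cre, 0.319 within AAV-Cre), a relation that was not tested further.

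**Figure D3:**
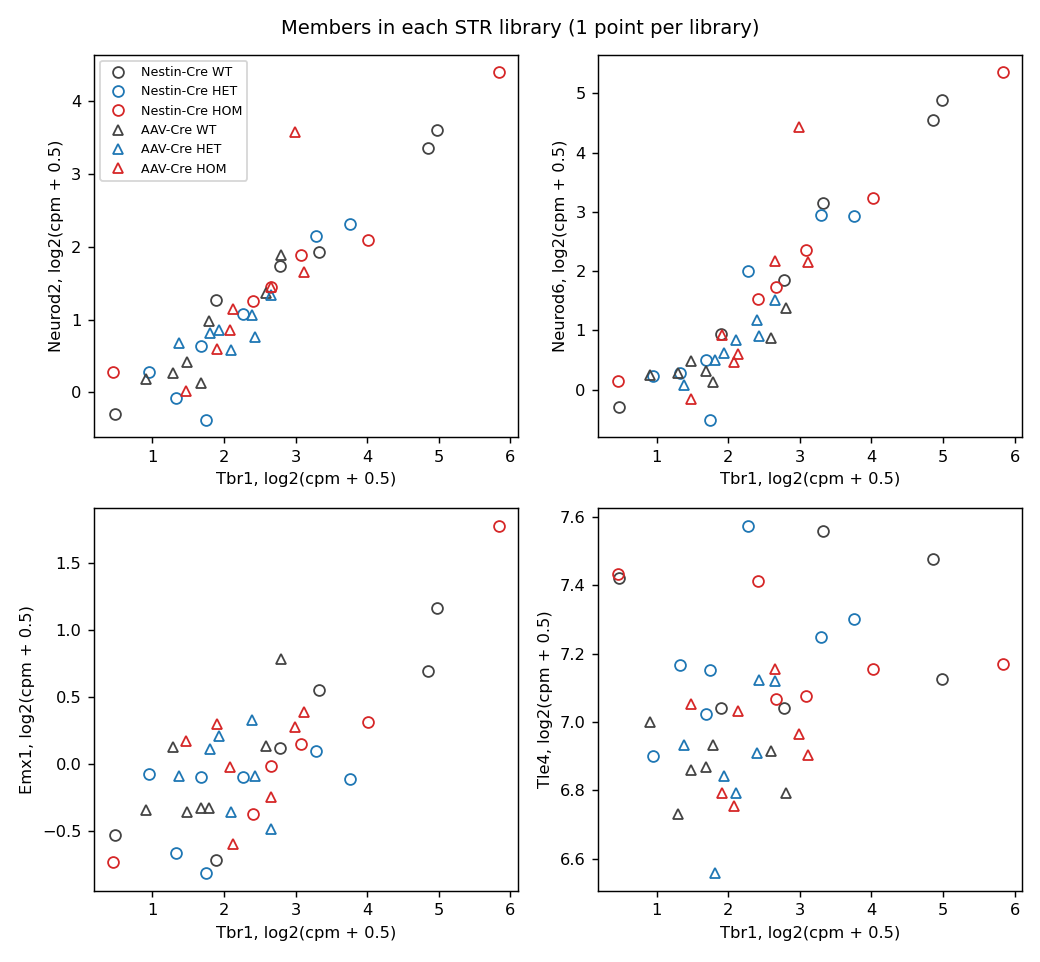
Neurod2, Neurod6, Emx1 and Tle4 against Tbr1 in each STR library, as log2(cpm + 0.5), by model and genotype. Neurod2 and Neurod6 climb with Tbr1 across libraries of all genotypes, while Tle4 stays level.

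As cortical tissue in SN, the genes again varied between libraries of one group. Gdnf was at 0.408, 0.622 and 0.645 cpm in Nestin-Cre WT, HET and HOM, and at 0.322, 0.463 and 0.477 in AAV-Cre mice. Neurod2 in Nestin-Cre SN ran from 0.437 in N_SN_WT_4612 to 16.8 in N_SN_WT_4329, with a median of 1.24 in WT, from 1.55 in N_SN_HET_4564 to 10.9 in N_SN_HET_4628, with a median of 2.55 in HET and from 1.38 in N_SN_HOM_4569 to 15.9 in N_SN_HOM_4627, with a median of 10.1 in HOM. The HOM median was the highest, and each group spanned low and high libraries, with N_SN_WT_4329 and N_SN_WT_4394 among the high ones. Neurod2 had a fold change of 0.80 (SE 0.757) in HOM and -0.26 (SE 0.733) in HET, and Neurod6 0.51 (SE 0.575) and -0.14 (SE 0.556). Without N_SN_HOM_4575 the HOM values were 0.66 for Neurod2 and 0.19 for Neurod6, and without N_SN_HET_4566 the HET values were -0.43 and -0.22. Tbr1 and Fezf2 were scarce, with means of 1.59, 1.31 and 0.954 cpm for Tbr1 and 1.90, 1.21 and 2.21 for Fezf2. Single libraries carried them: Fezf2 was 8.45 cpm in N_SN_HOM_4575, 6.91 in N_SN_WT_4329 and 3.70 in N_SN_HET_4566, and its HOM fold change of 0.23 became -1.001 without N_SN_HOM_4575.

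In Nestin-Cre SN, Tle4 and Rorb varied least from library to library. Tle4 averaged 48.7 ± 6.94, 52.5 ± 7.53 and 46.9 ± 5.47 cpm in WT, HET and HOM, Rorb 21.2 ± 1.965, 21.8 ± 2.19 and 19.2 ± 3.13, Cux2 22.0 ± 4.01, 30.4 ± 10.4 and 27.3 ± 11.9, and Lamp5 19.8 ± 9.52, 19.2 ± 9.999 and 25.0 ± 13.7. Cux2 had 0.45 (SE 0.232) in HET, where the adjusted p was 0.518. EdgeR called 0 of the 9 in HET and HOM, with 0% and 0% of 14873 genes called, the likelihood ratio test called 0 with 2.23% and 0.800% of all genes, DESeq2 called 0 with 5 and 1 of all genes, and 0 of the 9 had an unadjusted p under 0.05, beside 1337 and 608 of all genes. Medians were -0.061 and 0.23, beside 0.0021 and 0.0032 over all genes, with shared WT libraries. Striatal markers had a HET median of 0.98 (12 of 13 positive, Adora2a at 3.09), with N_SN_HET_4566 in that group. Without N_SN_HET_4566 the HET fold change of Tbr1 went from -0.26 to -0.67.

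In AAV-Cre SN, 7 of the 9 genes passed the filter, while Tbr1, at 0.849, 0.627 and 0.687 cpm, and Emx1, at 0.317, 0.243 and 0.305, did not. Neurod2 ran from 2.06 in A_SN_WT_3649 to 16.5 in A_SN_WT_3587, with a median of 3.59 in WT, from 1.76 in A_SN_HET_3610 to 8.56 in A_SN_HET_3652, with a median of 3.44 in HET and from 1.97 in A_SN_HOM_3687 to 17.7 in A_SN_HOM_3570, with a median of 4.42 in HOM. Ranges overlapped, with A_SN_WT_3587 and A_SN_HOM_3570, A_SN_HOM_3611 and A_SN_HOM_3567 high. Fold changes of Neurod2 were -0.67 (SE 0.579) in HET and 0.31 (SE 0.549) in HOM, and without A_SN_WT_3587 the HOM value was 0.73. Fezf2 averaged 1.34 ± 2.01, 0.566 ± 0.440 and 0.923 ± 1.34 cpm, with all 7 HET libraries below a WT mean that A_SN_WT_3578 raised at 5.64, and fold changes of -1.27 (SE 0.888) and -0.60 (SE 0.826). Without A_SN_WT_3578 these became -0.17 and 0.51. Lamp5 averaged 13.1 ± 8.36, 11.5 ± 3.64 and 16.3 ± 6.37. A_SN_WT_3587 held 31.3 cpm of Lamp5, and the HET fold change of -0.19 became 0.20 without it. Neurod6 averaged 5.78 ± 2.46, 4.62 ± 0.929 and 5.37 ± 2.30, Cux2 45.4 ± 5.85, 45.5 ± 6.14 and 44.1 ± 4.66, Rorb 19.5 ± 2.17, 17.9 ± 3.21 and 18.8 ± 2.03, and Tle4 56.3 ± 4.38, 51.2 ± 4.83 and 53.6 ± 4.67.

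EdgeR called 0 of these 7 in HET and HOM of AAV-Cre SN, with 0% and 0% of 14813 genes called. The likelihood ratio test called 2 in HET (Neurod2 and Fezf2) and 0 in HOM, with 2.19% and 1.47% of all genes. DESeq2 called 0, with 1 and 10 of all genes, and 0 of the 7 had an unadjusted p under 0.05, beside 694 and 1109 of all genes. Adjusted p over alternatives in HET ran from 0.00688 to 1.00 for Fezf2 and from 0.0366 to 0.999 for Neurod2, whose fold change without A_SN_WT_3587 was -0.25. Without A_SN_WT_3578 the likelihood ratio test did not call Fezf2. Medians were -0.19 and -0.055, beside 0.00034 and 0.0063 over all genes, with shared WT libraries. Excitatory markers had a HET median of -0.40 (1 of 14 positive), and striatal markers -0.48 in HET and -0.51 in HOM, against WT that included A_SN_WT_3587.

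Across the 41 SN libraries, Neurod2 and Neurod6 were the closest pair, as in STR. Neurod2 went with Neurod6 (r = 0.806, rho = 0.772, 0.831 in Nestin-Cre, 0.824 in AAV-Cre, 0.761 without the 2 farthest libraries) and Lamp5 (r = 0.797, rho = 0.759, 0.753, 0.854, 0.779). Tbr1 went with Emx1 (r = 0.768, rho = 0.531) and Fezf2 (r = 0.609, rho = 0.473), and Emx1 with Fezf2 (r = 0.728, rho = 0.506). Pairs across these were weaker in Pearson r but not absent: Neurod6 and Fezf2 had 0.513 (rho = 0.398), Neurod2 and Fezf2 0.508 (rho = 0.406) and Neurod2 and Emx1 0.485 (rho = 0.556). Within Nestin-Cre these were 0.740, 0.745 and 0.643, and within AAV-Cre 0.134, 0.232 and 0.291. Tbr1 and Neurod2 had r = 0.404 (rho = 0.343), where the same pair had 0.907 in STR. Slc17a7 followed Neurod2 at 0.941 (0.968 and 0.956 within models) and Tbr1 at 0.380, and reached 294 cpm in A_SN_HOM_3611. Neurod2 ran against the summed dopamine markers at -0.557 (-0.700 and -0.402 within models), oligodendrocyte markers at -0.460 (-0.776 and -0.0366) and interneuron markers at -0.483 (-0.609 and -0.286). The cortical level as a median over the 9 genes was 8.26 ± 9.13%, 6.91 ± 3.28% and 11.7 ± 7.82% of WT PFC in Nestin-Cre WT, HET and HOM, and 8.74 ± 4.74%, 6.60 ± 2.18% and 8.72 ± 4.80% in AAV-Cre mice. Over the 4 pallial genes it was 4.90 ± 6.38%, 4.47 ± 2.36% and 6.60 ± 5.32%, and 5.42 ± 3.54%, 4.11 ± 1.57% and 5.05 ± 2.96%. The genotype groups of each model overlapped. In SN the median over 9 was most often the value of Neurod2 in Nestin-Cre (8 libraries) and of Neurod6 in AAV-Cre mice (11 libraries). The 4 pallial genes differed in AAV-Cre SN WT, at 0.682% for Tbr1, 2.69% for Emx1, 9.18% for Neurod6 and 11.8% for Neurod2. A single share therefore does not describe them, and whether they mark cortical tissue in SN was not tested.

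**Figure D4:**
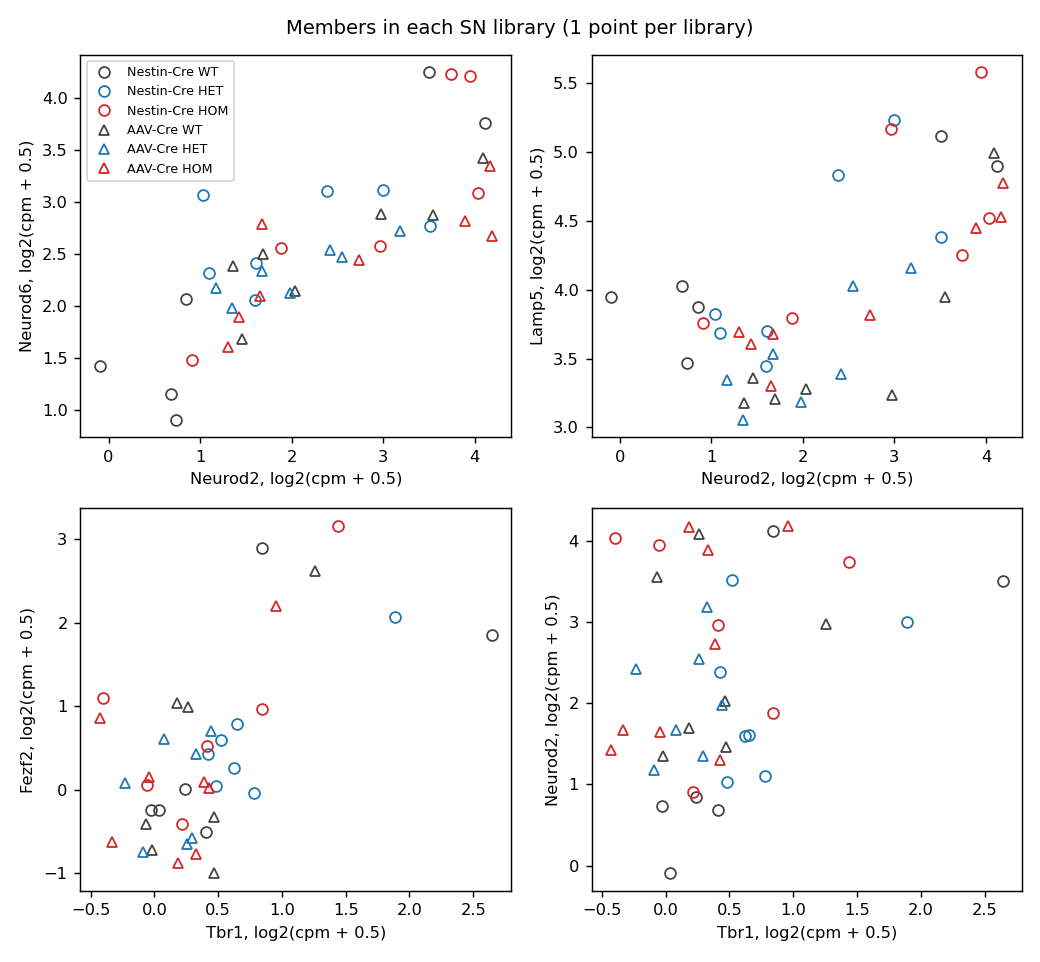
Neurod6 and Lamp5 against Neurod2, and Fezf2 and Neurod2 against Tbr1, in each SN library, as log2(cpm + 0.5), by model and genotype. Neurod6 and Lamp5 climb with Neurod2 in libraries of every genotype, while Fezf2 is high in a few libraries.

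Since Neurod2 and Neurod6 bind E-boxes, the start regions of the 9 genes were searched for the E-box CAGATG on both strands (CATCTG on the other). RefSeq start windows (GRCm38.p6, 250 bases before to 50 after each start) were found for all 9 genes, 13 windows in all. The motif lay in 3 of the 13, of 3 different genes, and in 5635 of all 32851 windows, or 17.2%. The 30 bases around each match are shown 5′ to 3′ along the gene's own strand, with the motif in capitals, since they are the matches among the 9 genes: Neurod2 at chr11:98329746-98329775 on the minus strand, Cux2 at chr5:122047887-122047916 on the minus strand, and Lamp5 at chr2:136057731-136057760 on the plus strand.
Neurod2: agtagagagtgaCAGATGgcggcgggtccc
Cux2: gggaggggggctCATCTGaatcgatataaa
Lamp5: cttgagtgggtaCAGATGtctctgaaagcc
The motif starts at -118, -79 and -5 bases from the RefSeq start of its window in Neurod2, Cux2 and Lamp5. Cux2 and Lamp5 have 2 windows each, and for these genes that start is not the gene boundary given above. Binding was not measured, and the windows of Tbr1, Neurod6, Emx1, Rorb, Fezf2 and Tle4 do not hold these letters.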

How the data were processed

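Count values are deposited as raw read counts per gene: the authors made TruSeq stranded mRNA libraries from total RNA, sequenced 75-bp single-end reads, demultiplexed them with bcl2fastq 2.20.0.422, aligned them to mm10 with STAR 2.5.2b and counted reads in annotated exons with featureCounts 1.5.1. From these counts, a gene was kept if 3 or more libraries of a fit reached 1 cpm. Libraries were scaled by TMM and genes tested with edgeR 4.0.16 (quasi-likelihood F test, legacy mode, trended dispersion) in R 4.3.3, with p values adjusted by Benjamini-Hochberg over every gene kept and a threshold of 0.1. The 3 genotypes of a model and region share a fit. SE is the fold change divided by the square root of F. RPKM used exon lengths of the annotation. Alternatives were the edgeR likelihood ratio test, DESeq2 1.42.0, its size factors, no filter, other samples in the fit, a threshold of 0.05, mouse as replicate block, and leaving out libraries. Replicate blocks were fitted in edgeR. limma 3.58.1 was loaded beside edgeR and DESeq2, and figures were drawn with matplotlib 3.10.9 in Python 3.11.15. The pipeline was tested on simulated data.

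Named genes are the 9 members; Gdnf; per gene list (excitatory, upper layer, deep layer, pallial transcription factors, hippocampus, olfactory bulb, striatum, midbrain dopamine, thalamus and tectum, interneuron, oligodendrocyte, astrocyte, microglia, immediate-early) up to 4 genes with the smallest adjusted p under 0.1, or with none the gene with the smallest p; the most abundant gene of a list; and the 2 genes most correlated with each member over 40 PFC libraries. Members and lists were chosen with earlier results of these data known. Correlations use log2(cpm + 0.5) with model-by-genotype means removed. Mouse numbers pair regions: same-mouse libraries of PFC and STR had median correlations of 0.332 in 15 Nestin-Cre and 0.322 in 21 AAV-Cre pairs, against -0.0116 and -0.0109 for different mice. The range of depths is given in the report, and a count of 0 allows up to 3 counts.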

Additional observations from a re-analysis of the deposited data

Results flagged for a closer look

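In each group of 4 to 10 libraries, the highest or lowest value of each of the 9 genes was compared with the next one, and 25 of 162 sets of gene and group had a value far from the rest (the gap divided by the range passed Dixon's 95% limit). Chance marks about 1 in 20 groups, and genes of the same library are not independent. No explanation was weighed for any of them.

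The most such values came from N_STR_HOM_4569, highest in its group for Tbr1 at 56.8 cpm (next 15.7), Neurod2 at 20.7 cpm (next 3.77), Neurod6 at 40.6 cpm (next 8.89), Emx1 at 2.92 cpm (next 0.741) and Fezf2 at 10.7 cpm (next 3.63). A_SN_WT_3578 had the highest value of Tbr1 at 1.90 cpm (next 0.886), Emx1 at 1.43 cpm (next 0.276) and Fezf2 at 5.64 cpm (next 1.56). N_SN_WT_4394 was highest for Tbr1 at 5.75 cpm (next 1.30) and Emx1 at 1.65 cpm (next 0.540). N_SN_HET_4566 had the highest value of Tbr1 at 3.20 cpm (next 1.22) and Fezf2 at 3.70 cpm (next 1.22). A_STR_HOM_3687 was highest for Neurod2 at 11.4 cpm (next 2.65) and Neurod6 at 21.2 cpm (next 3.99). N_SN_HOM_4575 had the highest value of Emx1 at 1.61 cpm (next 0.276) and Fezf2 at 8.45 cpm (next 1.64). N_PFC_HOM_4580 was lowest for Tbr1 at 129 cpm (next 142). A_PFC_WT_3587 had the highest value of Neurod2 at 74.7 cpm (next 59.5). N_PFC_HOM_4568 was highest for Emx1 at 15.5 cpm (next 10.3). A_STR_WT_3588 had the highest value of Emx1 at 1.22 cpm (next 0.599). A_SN_HET_3676 was highest for Emx1 at 0.860 cpm (next 0.253). N_STR_WT_4609 had the highest value of Cux2 at 19.0 cpm (next 10.6). A_SN_HOM_3570 was highest for Fezf2 at 4.09 cpm (next 1.32). A_PFC_WT_3578 had the highest value of Lamp5 at 274 cpm (next 213). A_SN_WT_3587 was highest for Lamp5 at 31.3 cpm (next 14.9).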

How the results depend on the processing

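Over 174 fold changes of the 9 genes, alternatives kept the direction and the side of the threshold 1104 times, turned the direction 26 times, added a call 15 times and ended one 2 times. The threshold of 0.05 is not part of this tally. The likelihood ratio test added calls: 4 of the 9 in Nestin-Cre STR HET, 1 in AAV-Cre PFC HOM, 2 in AAV-Cre STR HOM, 2 in AAV-Cre SN HET, 2 in the AAV-Cre difference between STR and PFC and 1 in the HOM difference between models. Over all genes that test called 8.57%, 2.93%, 1.19%, 2.19%, 0.325% and 4.20% in these, so calls were added across all genes too. In the last the quasi-likelihood test called 3.54%. The fit over all regions added 1 in AAV-Cre STR HOM, where it called 4 of all genes. Leaving out libraries chosen after seeing the data (N_STR_HOM_4569, N_SN_HET_4566, A_STR_HOM_3687, A_SN_WT_3587 and A_SN_WT_3578) or the mouse with conflicting labels turned most of the directions. In AAV-Cre STR HOM without A_STR_HOM_3687 the members called were from 0 with the quasi-likelihood test to 1 with the likelihood ratio test, as in AAV-Cre SN HET without A_SN_WT_3578. No genotype call of the 9 was made by the edgeR quasi-likelihood test within a model and region, so none could be lost. Both lost calls of the tally were of Tle4 between WT PFC of the models. At a threshold of 0.05 Tle4 would lose its call there, at 0.0816, and in AAV-Cre WT SN against PFC, at 0.0774. The cause was not tested for any of these.

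Directions that turned were as follows. Without the mouse with conflicting labels, Neurod6 was 0.0024 in Nestin-Cre PFC HET and 0.085 in STR HOM, Emx1 -0.042 in PFC HOM, Fezf2 -1.001 in SN HOM, and in the difference between STR and PFC Neurod2 was 0.15 and Neurod6 0.17. Leaving out PFC HOM libraries gave -0.18 for Emx1 without N_PFC_HOM_4568 and -0.054 for Rorb without N_PFC_HOM_4393, with Rorb up to 0.096 without N_PFC_HOM_4580. Without N_STR_HOM_4569, STR HOM values were -0.92 for Tbr1, -1.07 for Neurod2 and -0.014 for Fezf2, and the difference between STR and PFC was -0.88 for Tbr1, -0.88 for Emx1 and -0.12 for Fezf2. Without A_SN_WT_3587, AAV-Cre SN HET values were -0.041 for Cux2 and 0.20 for Lamp5, and Neurod6 in HOM was 0.089. Without A_SN_WT_3578, Cux2 in HET was -0.020 and Fezf2 in HOM 0.51 (against -0.57 without A_SN_WT_3587), Lamp5 in HET and Neurod6 in HOM stayed negative at -0.26 and -0.059, and the likelihood ratio test called Neurod2 in HET at 0.0631. The fit over all regions gave -0.0020 for Cux2 in AAV-Cre SN HET. With mouse as replicate block, the Nestin-Cre difference between STR and PFC was 0.0037 for Neurod6, -0.022 for Cux2 and 0.071 for Rorb, and the AAV-Cre one -0.041 for Cux2.

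The cortical level depended on its summary. As a mean over the 9 genes it was 44.7%, 40.5% and 44.0% in Nestin-Cre STR WT, HET and HOM, 20.6%, 22.0% and 21.9% in SN, 37.6%, 38.7% and 40.8% in AAV-Cre STR and 25.4%, 22.8% and 24.8% in SN. As the median over the 4 pallial genes, chosen after seeing the data, it was 3.10% in Nestin-Cre STR HET, 2.56%, 2.70% and 4.71% in AAV-Cre STR and 4.11% in AAV-Cre SN HET. Against WT PFC of the other model, AAV-Cre STR HET was at 8.50%. DESeq2 gave no value where it set an adjusted p aside, as for Tbr1 in Nestin-Cre WT regions. Depth limits Tbr1, Emx1 and Fezf2 in SN and Emx1 in STR, where counts are low. Nestin-Cre PFC HOM has 4 mice, and groups of 6 to 8 mice with library spreads as wide as those of Neurod6 in STR give wide errors.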
